A study of Homo sapiens with 4 samples.

Results

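The 10 genes described here encode calcium channels, pumps and sensors of the endoplasmic reticulum: ITPR1, ITPR2, ITPR3, RYR2, TMEM38A, TMEM38B, ATP2A2, ATP2A3, STIM1 and STIM2. They were selected by symbol, from earlier results on the siTTF-1 over siNTC difference in these same arrays, in which TMEM38B and ITPR2 had stood out. That difference is therefore given for the members as a description, with no test. The platform's annotation paired 33 of the 54675 probe sets with these symbols, and 0 further probe sets paired a member with several symbols. The 10 genes stand among 19775 genes read by probe sets with exactly 1 symbol.

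RNA came from NCI-H209 and Lu139, established human small cell lung cancer lines that received either a control siRNA, siNTC, or a TTF-1 siRNA, siTTF-1, by electroporation. TTF-1 is a homeodomain transcription factor of lung and thyroid encoded by NKX2-1. Each of the 4 combinations, NCI-H209 siNTC, NCI-H209 siTTF-1, Lu139 siNTC and Lu139 siTTF-1, was measured on 1 Affymetrix array, so no value within a line has a replicate. All 4 groups share the electroporation, and the sources used here do not give the time after it or the siRNA sequences.

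The endoplasmic reticulum is the main calcium store of most cells. SERCA pumps load it from the cytosol, IP3 receptors and ryanodine receptors release calcium from it, TRIC channels carry the potassium counter-current that balances release, and STIM proteins sense the store's calcium level and open ORAI channels in the plasma membrane when it falls. Neuroendocrine cells, from which small cell lung cancer takes much of its phenotype, use calcium signals to secrete granules of peptide hormone.

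A value below is an intensity as deposited, on a linear scale. A difference is on the log2(value + 18.7) scale, where 18.7 is the 25th percentile of all values, and this scale understates the change of dim probe sets. A probe set counted as above the expression limit in a line where the mean log2 value of that line's 2 arrays was above 5.80, an intensity of 37.0. Probe sets differ in affinity, so the level of 1 probe set is not set against that of another. Where an array measures many cells at once, fewer cells expressing a gene and less RNA per cell cannot be told apart.

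The knockdown and the labels were checked first. NKX2-1 had 596 in NCI-H209 siNTC, 243 in NCI-H209 siTTF-1, 780 in Lu139 siNTC and 461 in Lu139 siTTF-1 on 211024_s_at, or 40.7% and 59.1% of control. On 210673_x_at it stood at 64.6% and 55.3% of control. All 8 neuroendocrine markers with a value (INSM1, CHGA, CHGB, SYP, NCAM1, DLL3, GRP and UCHL1) and all 4 epithelial markers (EPCAM, KRT8, KRT18 and CDH1) were above the limit in both lines. Their summed intensities ran from 23230 to 37160 and from 12870 to 36780. The 6 fibroblast, 3 leukocyte and 3 endothelial markers summed to at most 538, 87.1 and 228 on any array, with 3, 1 and 2 of them above the limit. Those above it were COL1A1 (at most 361.5), DCN (74.96) and PDGFRB (61.8) for fibroblasts, and CD3D (51.8) for leukocytes. For endothelium they were PECAM1 (at most 145.6) and VWF (75.5). Among those under it, PTPRC, which defines leukocytes, had at most 11.3, and CDH5, an adhesion molecule of endothelium, at most 10.95. For all probe sets, the median intensity of the NCI-H209 arrays was 56.6 and 57.7, against 48.4 and 49.6 for Lu139.

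The window upstream of TMEM38B is shown because TMEM38B is the member whose probe sets were all lower after siTTF-1 in both lines. That of its paralog TMEM38A, which was not lower, stands beside it. Both are the 250 bases before the annotated start in RefSeq's GRCh38.p14, on the plus strand, at chr9:105694291-105694540 and chr19:16660889-16661138. Capitals mark matches to CACTTG or CTCAAG, hexamers around the CAAG core that sites of the NKX2 family share, searched on both strands.
TMEM38B: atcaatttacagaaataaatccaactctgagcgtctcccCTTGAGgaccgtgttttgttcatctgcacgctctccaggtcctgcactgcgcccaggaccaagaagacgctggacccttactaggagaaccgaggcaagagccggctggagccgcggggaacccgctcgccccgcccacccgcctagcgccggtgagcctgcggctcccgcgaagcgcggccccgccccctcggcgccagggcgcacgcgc
TMEM38A: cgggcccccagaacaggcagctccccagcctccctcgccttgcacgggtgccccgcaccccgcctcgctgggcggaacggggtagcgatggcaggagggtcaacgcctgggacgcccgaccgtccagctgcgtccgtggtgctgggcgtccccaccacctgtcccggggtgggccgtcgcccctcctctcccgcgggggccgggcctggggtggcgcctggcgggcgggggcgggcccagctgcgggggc

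The TMEM38B window held CTTGAG, which is CTCAAG on the other strand, 211 bases before the start, and the TMEM38A window held no match. Over windows of 300 bases (250 before to 50 after the start), 8 members had at least 1 window and 4 of their 12 windows had a match, 1 each for TMEM38B, ITPR1, RYR2 and STIM1. Of all 35116 such windows, 11.5% held CACTTG on either strand, 12.4% held CTCAAG and 21.7% held at least 1 of them. The 300-base windows had 69.0% GC for TMEM38B and 80.7% for TMEM38A, against a median of 58.7% over all windows. These shares take no account of GC content. ITPR2 and ATP2A3 had no window in the table used. A match is a run of letters, and binding at these windows was not measured in this study.

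**Figure D1:**
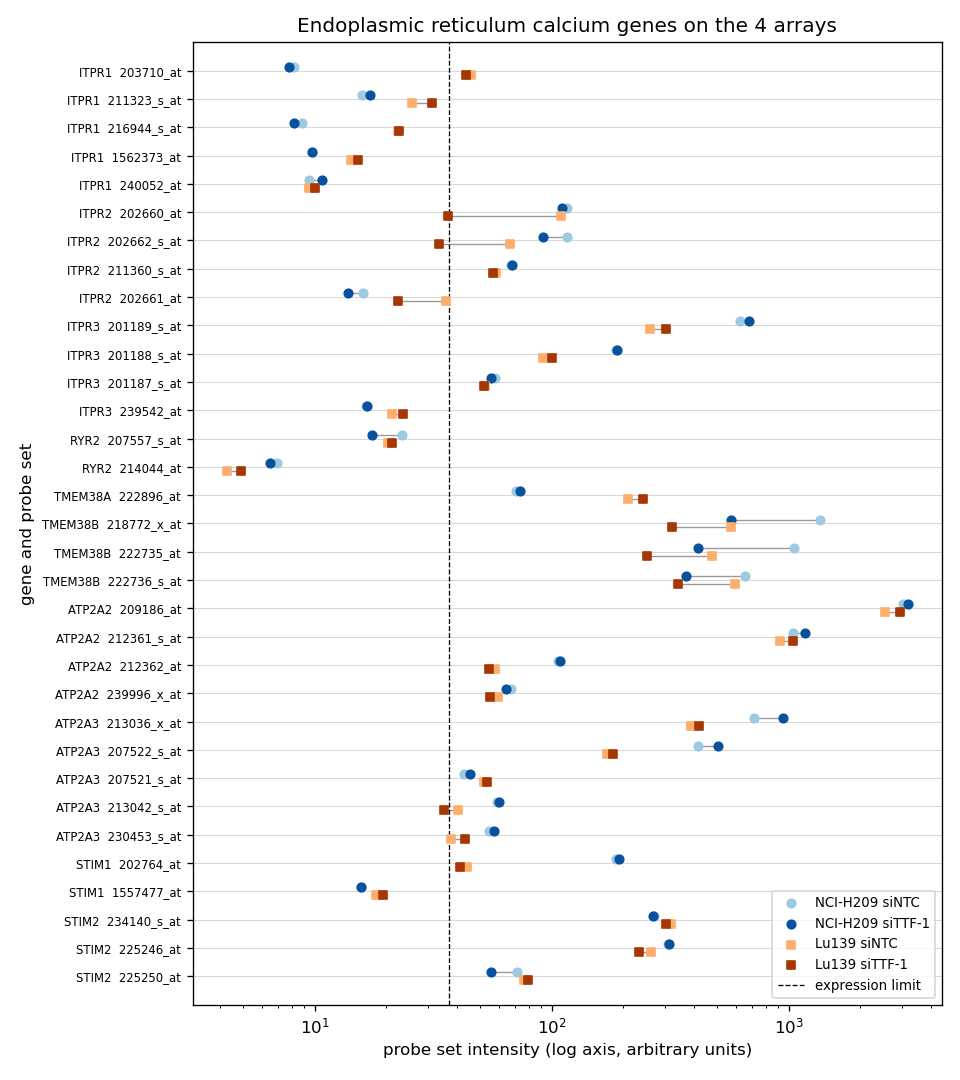
Intensity of each of the 33 member probe sets on the 4 arrays, on a log axis, with circles for NCI-H209 and squares for Lu139, light for siNTC and dark for siTTF-1, and the expression limit of 37.0 as a dashed line. The 3 TMEM38B probe sets show dark symbols left of light ones in both lines, and ITPR2 202660_at and 202662_s_at show the wide gap in Lu139.

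Of the 33 member probe sets, 23 were above the limit in NCI-H209 and 24 in Lu139, and 23 were above it in both. The 9 probe sets under it in both lines had intensities from 4.27 to 35.9. They read ITPR1 (4 probe sets), RYR2 (2), ITPR2, ITPR3 and STIM1 (1 each). In NCI-H209, 3 member probe sets were at least 1.5-fold lower after siTTF-1, where 3.51% of all 33209 probe sets above the limit were, and 0 were 1.5-fold higher, where 1.12% were. In Lu139, 5 were at least 1.5-fold lower, where 1.61% of 31324 were, and 0 were higher, where 0.16% were. The 3 in NCI-H209 were the probe sets of TMEM38B, and the 5 in Lu139 were these and 2 of ITPR2. The choice of members rests on this same difference, so these shares are no evidence about the group. The median difference over the members above the limit was 0.02 in NCI-H209 and -0.04 in Lu139, and over all probe sets above it 0.01 and 0.02.

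TMEM38B encodes TRIC-B, a trimeric potassium channel of the endoplasmic reticulum found in most tissues, whose loss in people causes a form of brittle bone disease. On 218772_x_at its intensity was 1352 in NCI-H209 siNTC, 570 in NCI-H209 siTTF-1, 573 in Lu139 siNTC and 321 in Lu139 siTTF-1. On 222735_at the 4 values, in the same order, were 1056, 416, 477 and 252. On 222736_s_at they were 652, 370, 592 and 341. Within each line the siTTF-1 array was the lower one on every probe set, and all 12 values were far above the limit. After siTTF-1 the transcript stood at 42.2%, 39.4% and 56.7% of control in NCI-H209 and at 56.1%, 52.9% and 57.7% in Lu139.

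On the log2 scale, 218772_x_at of TMEM38B differed by -1.22 in NCI-H209 and by -0.80 in Lu139, with mean -1.01 and SD 0.30 over n = 2 lines. On 222735_at they were -1.31 and -0.87 (mean -1.09, SD 0.31, n = 2 lines), and on 222736_s_at -0.79 and -0.76 (mean -0.78, SD 0.02, n = 2 lines). The probe sets thus gave nearly the same decrease in Lu139 and spread more in NCI-H209, where 222736_s_at showed the smallest one. Counted from the lowest difference, 222735_at ranked 71 of 33209 in NCI-H209, and its rank in Lu139 was 118 of 31324. The ranks were 102 and 181 for 218772_x_at and 486 and 219 for 222736_s_at. These 3 were the members at least 1.5-fold lower in both lines, where 0.386% of the 29008 probe sets above the limit in both were. The probe set 218772_x_at carries the platform's suffix for probes that may also match other transcripts. The suffix of 222736_s_at is a different one, and 222735_at carries neither. The decrease on 222735_at was the largest in each line. Whether other transcripts contribute to any of these values was not tested.

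TMEM38A encodes TRIC-A, the paralog that is abundant in striated muscle and brain. Its single probe set, 222896_at, had 71.0 in NCI-H209 siNTC, 73.8 in NCI-H209 siTTF-1, 209.4 in Lu139 siNTC and 243 in Lu139 siTTF-1. The siTTF-1 array was slightly higher in each line, by 0.04 and 0.20 on the log2 scale (mean 0.12, SD 0.11, n = 2 lines). Both TRIC genes were thus measured above the limit in both lines, with a decrease in TMEM38B and none in TMEM38A.

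ITPR2 encodes the type 2 IP3 receptor, the subtype most sensitive to IP3 and common in secretory epithelium and heart. On 202660_at its intensity was 117 in NCI-H209 siNTC, 110 in NCI-H209 siTTF-1, 109 in Lu139 siNTC and 36.4 in Lu139 siTTF-1. On 202662_s_at the values were 117, 91.6, 66.9 and 33.7, and on 211360_s_at 67.2, 68.2, 58.0 and 56.5. On the first 2 the Lu139 siTTF-1 array stood well below the other 3 and under an intensity of 37.0, whereas 211360_s_at was level across all 4.

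The ITPR2 differences in Lu139 were -1.22 on 202660_at, -0.71 on 202662_s_at and -0.03 on 211360_s_at, with -0.41 on 202661_at, which was dim on every array (13.8 to 35.9). In NCI-H209 they were -0.07, -0.30, 0.02 and -0.09. On 202660_at the mean was -0.64 with an SD of 0.81 (n = 2 lines), larger than the mean itself. As the mean of all 4 probe sets ITPR2 had -0.59 in Lu139 and -0.11 in NCI-H209, so the size of the decrease in Lu139 depended on the probe set. In Lu139, 202660_at ranked 19 from the lowest of 31324 probe sets, 202662_s_at ranked 293 and 211360_s_at ranked 12367. Whether the decrease differed between the lines was not tested, since each line has 1 array per siRNA.

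ITPR3 encodes the type 3 IP3 receptor, common in epithelia and at contacts with mitochondria. On 201189_s_at its intensity was 624 in NCI-H209 siNTC, 681 in NCI-H209 siTTF-1, 259 in Lu139 siNTC and 305 in Lu139 siTTF-1. The differences after siTTF-1 were 0.12 and 0.22 (mean 0.17, SD 0.07, n = 2 lines). On 201188_s_at they were 0.01 and 0.11, and on 201187_s_at -0.05 and -0.01. None of the ITPR3 probe sets reached 1.5-fold in either line. ITPR2 was thus the IP3 receptor gene with a 1.5-fold difference, in Lu139 alone and on 202660_at and 202662_s_at but not 211360_s_at.

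ITPR1 encodes the type 1 receptor, the main form in neurons. On 203710_at it had 8.16 in NCI-H209 siNTC, 7.84 in NCI-H209 siTTF-1, 45.9 in Lu139 siNTC and 43.4 in Lu139 siTTF-1. It was above the limit only in Lu139, where the difference after siTTF-1 was -0.06. The other 4 ITPR1 probe sets had between 8.16 and 31.3 on all arrays. RYR2, the ryanodine receptor of heart and brain, had 4.27 to 23.3 on its 2 probe sets, under the limit in both lines, and no change can be read at that signal. Both NCI-H209 arrays held exactly the same value for ITPR1 1562373_at (9.78) and for STIM1 1557477_at (15.7). Across all probe sets, 2416 such ties occurred in NCI-H209 and 2206 in Lu139.

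The SERCA pumps were not lower on their brighter probe sets. ATP2A2 encodes SERCA2, the pump of nearly all cells. On 209186_at it had 3021 in NCI-H209 siNTC, 3184 in NCI-H209 siTTF-1, 2547 in Lu139 siNTC and 2940 in Lu139 siTTF-1, and on 212361_s_at 1047, 1171, 920 and 1041. The siTTF-1 array was a little higher in each line, by 0.08 and 0.21 on 209186_at and by 0.16 and 0.17 on 212361_s_at. Its 2 dimmer probe sets had differences from -0.09 to 0.02.

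ATP2A3 encodes SERCA3, a pump of lower calcium affinity typical of epithelial, endocrine and blood cells. On 213036_x_at it had 711 in NCI-H209 siNTC, 943 in NCI-H209 siTTF-1, 386 in Lu139 siNTC and 421 in Lu139 siTTF-1. On 207522_s_at the values were 414, 506, 171 and 182. Both probe sets were higher after siTTF-1 in both lines, by 0.40 and 0.12 on the first (mean 0.26, SD 0.20, n = 2 lines) and by 0.28 and 0.085 on the second. The 0.40 was the highest difference of any member above the limit in NCI-H209, and stayed under 1.5-fold. Its probe set, 213036_x_at, carries the suffix for probes that may also match other transcripts. The 3 dimmer probe sets of ATP2A3 had 35.1 to 60.05 and differences from -0.14 to 0.14.

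The STIM sensors showed small differences. STIM1 202764_at had 187 in NCI-H209 siNTC, 192 in NCI-H209 siTTF-1, 44.0 in Lu139 siNTC and 41.1 in Lu139 siTTF-1, with differences of 0.04 and -0.07. STIM2, the sensor that answers to smaller falls of store calcium, had 270, 267, 320 and 305 on 234140_s_at, with differences of -0.02 and -0.07. On 225246_at STIM2 had 0.02 and -0.15, and on 225250_at -0.28 in NCI-H209 and 0.04 in Lu139. Without TMEM38B and ITPR2, the member probe sets above the limit ranged from -0.28 to 0.40 in NCI-H209 (17 probe sets, median 0.04) and from -0.15 to 0.22 in Lu139 (18 probe sets, median 0.04).

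**Figure D2:**
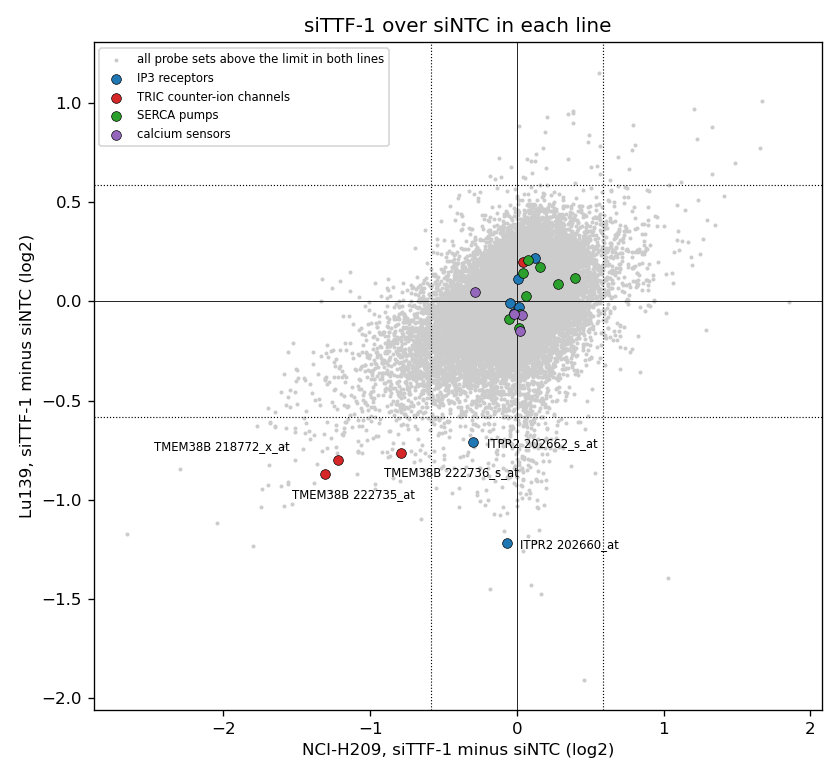
Difference after siTTF-1 on the log2 scale in NCI-H209 (x axis) and Lu139 (y axis), with grey points for all probe sets above the limit in both lines, coloured points for member probe sets above it in at least 1 line, and dotted lines at 1.5-fold. The TMEM38B points lie past 1.5-fold on both axes, 202660_at and 202662_s_at of ITPR2 lie past it in Lu139 alone, and the other members lie inside the dotted square.

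Gene by gene, patterns over the 4 arrays were compared by the Euclidean distance of log2 values centred on each gene's mean, among 13305 other genes read by their brightest probe set and above the limit in both lines. The genes nearest to TMEM38B were FGD3 (distance 0.12), RSRC1 (0.20) and RALB (0.20). FGD3 had differences after siTTF-1 of -1.09 and -0.87, close to those of TMEM38B. Those nearest to ITPR2 were FRG1BP (0.32), ASXL3 (0.38) and DBT (0.42), all with differences from -0.97 to -0.72 in Lu139. Each was smaller in size than the -1.22 of ITPR2 there. In NCI-H209 the same genes had -0.13, -0.44 and 0.16, beside -0.07 for ITPR2. With 4 arrays, such a distance is a description of these arrays.

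The lines also differed in the level of several members. These comparisons use the same 4 arrays as the siTTF-1 differences, and each is given as Lu139 minus NCI-H209 on the log2 scale, first for the siNTC arrays and then for the siTTF-1 arrays. Over all 35525 probe sets above the limit in at least 1 line the median was -0.27 and -0.24, so the deposited values of Lu139 were lower as a whole. Quantile normalization over the 4 arrays moved those medians to 0.02 and 0.04. Of the 24 member probe sets, 19 had a lower mean level in Lu139 as deposited and 12 after quantile normalization, so the sign of a small gap between the lines rests on how the arrays were scaled.

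STIM1 was at least 2-fold lower in Lu139, at -1.71 and -1.82 on 202764_at, an intensity 4.25 and 4.68 times higher in NCI-H209. After quantile normalization the STIM1 values were -1.41 and -1.59. TMEM38A was higher in Lu139, with 2.95 and 3.29 times the intensity on 222896_at, and ITPR1 was higher too, at 1.27 and 1.23 on 203710_at, where NCI-H209 was under the limit. After quantile normalization these became 1.63 and 1.86 for TMEM38A and 1.41 and 1.34 for ITPR1. These 3 genes were the members past 2-fold with both siRNAs under both scalings. The size of the ITPR1 gap depends on the pseudocount, since NCI-H209 was under the limit. The other 4 ITPR1 probe sets, under the limit in both lines, had differences from -0.03 to 0.62. STIM1 was close to the limit in Lu139, at 41.1 to 44.0.

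ITPR3 and ATP2A3 were 2-fold lower in Lu139 on 1 probe set each, as deposited. ITPR3 had -1.21 and -1.11 on 201189_s_at, and ATP2A3 had -1.19 and -1.38 on 207522_s_at. After quantile normalization the values were -0.74 and -0.65 for ITPR3 and -0.74 and -0.95 for ATP2A3, under 2-fold. In all, 3 member probe sets were at least 2-fold lower in Lu139 with both siRNAs, where 15.8% of all probe sets were, and 2 at least 2-fold higher, where 4.32% were.

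TMEM38B was lower in Lu139 on each probe set as deposited, under 2-fold with siTTF-1. On 218772_x_at it had -1.21 on the siNTC arrays and -0.79 on the siTTF-1 arrays. On 222736_s_at the values were -0.14 and -0.11, and they turned to 0.33 and 0.34 after quantile normalization. The probe sets of TMEM38B thus disagreed on its level in the lines, while they gave the same direction after siTTF-1. ITPR2 202660_at had -0.08 with siNTC and -1.23 with siTTF-1. ATP2A2 209186_at had -0.24 and -0.11 as deposited and 0.22 and 0.32 after quantile normalization, and STIM2 234140_s_at had 0.23 and 0.18 as deposited and 0.69 and 0.62 after it.

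**Figure D3:**
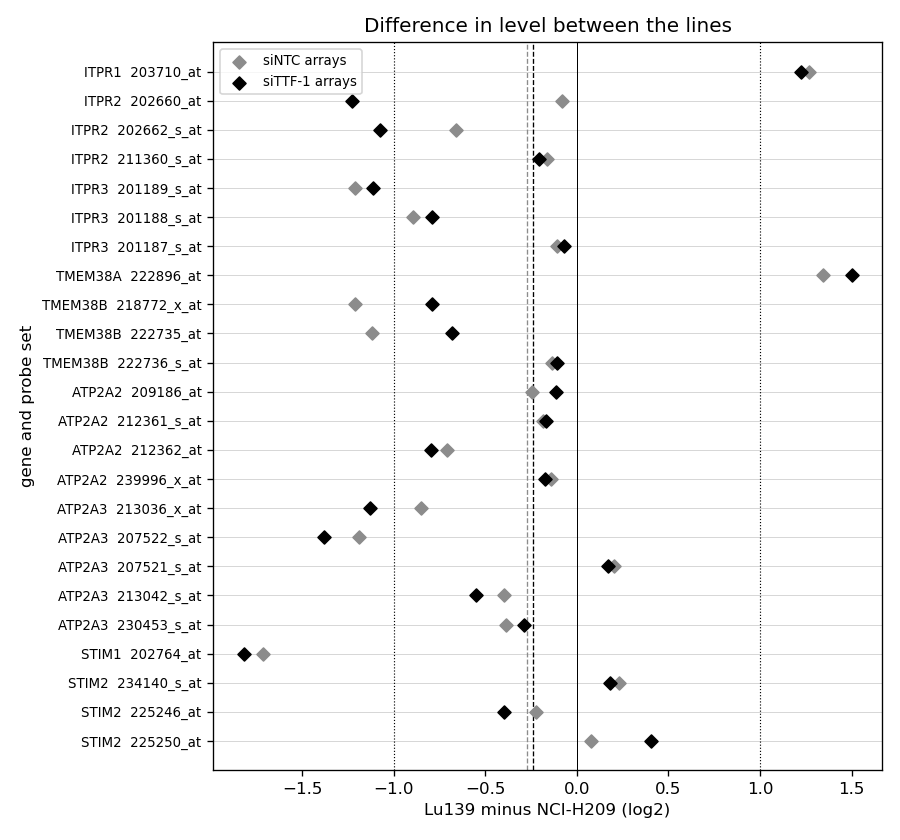
Lu139 minus NCI-H209 on the log2 scale for the 24 member probe sets above the limit in at least 1 line, grey for the siNTC arrays and black for the siTTF-1 arrays, with dashed lines at the medians of all probe sets (-0.27 and -0.24) and dotted lines at 2-fold. STIM1 202764_at lies furthest left, TMEM38A 222896_at and ITPR1 203710_at lie past 2-fold to the right, and ITPR2 202660_at shows the widest gap between its grey and black symbols.

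Other genes of calcium handling were read from 9 lists of 138 genes outside the 10 members, of which 129 had a value and 104 were above the limit in both lines on their brightest probe set. After siTTF-1, 29 were lower and 43 higher in both lines, or 27.9% and 41.3%, against 27.5% and 37.7% of 13306 genes of the array. Of the 104 genes, 3 were at least 1.5-fold lower in NCI-H209 and 1 was higher, or 2.88% and 0.962%, against 3.51% and 1.04% of all genes. In Lu139, 1 was lower and 0 higher, or 0.962% and 0.0%, against 0.857% and 0.195% of all genes. NCI-H209 and Lu139 had medians over the 104 genes of 0.02 and 0.03, beside 0.01 and 0.03 for all genes.

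The gene at least 1.5-fold lower in both lines was RCN1, whose product binds calcium in the lumen of the organelle, with 1903, 534, 1043 and 433 on the 4 arrays and differences of -1.80 and -1.23. PLCB1, a phospholipase C that makes IP3, had 2728 in NCI-H209 siNTC, 1103 in NCI-H209 siTTF-1, 446 in Lu139 siNTC and 380 in Lu139 siTTF-1, or -1.29 and -0.22. AHCYL1, which encodes IRBIT, an inhibitor of IP3 binding to its receptor, had -0.59 and -0.18. ITPKB, a kinase that phosphorylates IP3, was the gene of the 104 that was 1.5-fold higher, with 0.65 in NCI-H209 and 0.15 in Lu139. PLCB1, AHCYL1 and ITPKB were named because they passed 1.5-fold, which they did in NCI-H209 alone. There, 1 of 15 IP3 receptor regulators was 1.5-fold lower. Of 17 genes of IP3 production and removal, 1 was lower and 1 higher. ITPR2 itself had -0.07 on 202660_at and -0.30 on 202662_s_at in NCI-H209. ITPRIPL2, an IP3 receptor interacting protein family gene, had 574 and 246 in NCI-H209 and 6.07 on both Lu139 arrays, under the limit there. BOK, whose product binds IP3 receptors, had 77.1 and 171 in NCI-H209, a difference of 0.99, and 29.7 and 32.4 in Lu139, also under the limit. Neither is among the 104, and both were named after their values were seen.

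By list, ER release and leak channels had 3 of 6 genes lower and 2 higher in both lines, and the regulators of SERCA had 2 and 1 of 3. The IP3 receptor regulators had 4 lower and 4 higher of 15, IP3 production and removal 5 and 10 of 17, and store-operated entry, which holds the ORAI channels, 3 and 3 of 12. The calcium-binding proteins of the lumen had 4 and 6 of 16, and transfer to mitochondria 3 and 11 of 17. Export through the plasma membrane and Golgi had 1 and 4 of 8, and calcineurin with NFAT 4 and 2 of 10. Over all genes of the array, 27.5% were lower and 37.7% higher in both lines, so higher was the commoner direction there too. The largest excess in 1 direction was in transfer to mitochondria, with medians of 0.11 and 0.07 and 0 genes past 1.5-fold. That list was picked as the most extreme of these small lists after the values were seen, and its excess was not tested.

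In limma, fitted on all 32746 probe sets above the limit with terms for line and siRNA, 0 of the 111 pathway genes tested fell and 0 rose at an adjusted p under 0.05, where 0.0% of all probe sets were called lower and 0.0% higher. At an unadjusted p under 0.05, 11 of the 111 were lower and 14 higher, or 9.91% and 12.6%, against 9.29% and 5.88% of all probe sets. The pathway genes were read from their brightest probe set, unlike that background. With the mean of each gene's probe sets, 9.01% and 13.5% of the 111 passed, against 8.83% and 7.2% of 14547 genes. In the main fit RCN1 had the smallest limma adjusted p of the 111, 0.104. With quantile normalization over the 4 arrays, limma called 1 of 110, RCN1 (limma adjusted p = 0.0391), and 99 lower and 24 higher probe sets in all. RCN1 was named with its low siTTF-1 difference in these same arrays already known. Its p-values are therefore a description and no independent support. The siRNA effect is replicated only across the 2 lines. The 1 residual degree of freedom holds how far the siTTF-1 difference departs between the lines, moderated by a spread estimated over all probe sets. A difference present in 1 line alone is therefore counted as error, as for PLCB1 at -1.29 and -0.22. Technical differences between the arrays enter the same residual and cannot be told apart from it. On simulated data this fit made more false calls than its threshold allows, so its adjusted p-values may be too small.

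**Figure D4:**
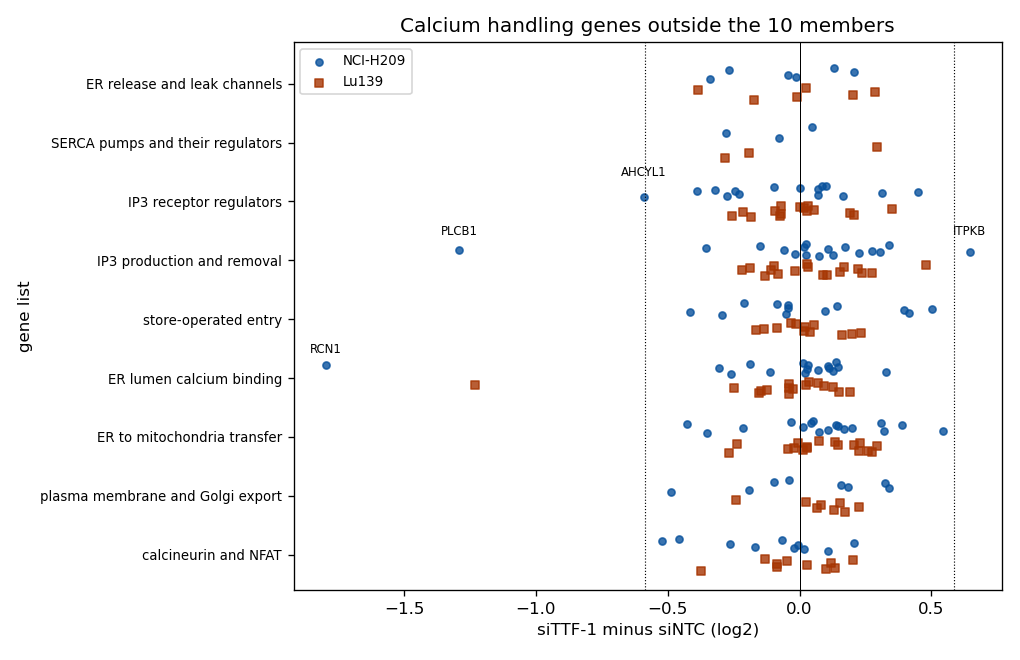
Difference after siTTF-1 on the log2 scale for the 104 calcium handling genes outside the 10 members, by list, with circles for NCI-H209, squares for Lu139 and dotted lines at 1.5-fold. RCN1 lies past the lower line in both lines, PLCB1 and AHCYL1 past it in NCI-H209 and ITPKB past the upper one in NCI-H209, and the other genes lie between the dotted lines.

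In level, the same limma fit called 69 of the 111 pathway genes lower and 19 higher in Lu139, where 48.8% and 19.2% of all probe sets were called. After quantile normalization the split was 45 lower and 35 higher of 110, or 40.9% and 31.8%, where 31.3% and 35.9% of all probe sets were called. Each pathway gene was read from its brightest probe set, while these backgrounds hold every probe set above the limit. With the mean of each gene's probe sets as deposited, 63.1% and 17.1% of the 111 were called, against 52.5% and 18.8% of 14547 genes. By mean difference over both siRNAs, the 5 genes named as lower in Lu139 were ITPRIPL2, the junctophilin JPH3, FKBP1B, which encodes a ryanodine receptor binding protein, the plasma membrane pump ATP2B4 and NUCB2. The 5 named as higher were the calcineurin inhibitors RCAN3 and RCAN2, the plasma membrane pumps ATP2B1 and ATP2B2, and the phospholipase PLCG1. Of these, 3 were under the limit in 1 line, where the size of the gap is set by the pseudocount and is not given. ITPRIPL2 had 574 and 246 in NCI-H209 against 6.07 on both Lu139 arrays, JPH3 had 571 and 553 against 26.4 and 19.7, and RCAN2 had 17.4 and 20.1 against 222 and 231. Among the other 7, FKBP1B (-3.71) and ATP2B4 (-3.36) were close to the limit in Lu139, at 33.8 to 42.2 and 36.4 to 39.0. NUCB2 had -2.79, RCAN3 3.09, ATP2B1 1.85, ATP2B2 1.64 and PLCG1 1.49. All 10 passed limma at an adjusted p of at most 4.88e-05, with the limit on these p-values given above. They were picked by the size of this same difference, so these p-values are no support for it. In the line term, the siNTC and siTTF-1 arrays of a line stand in as its replicates. ATP2B4 had 496 and 632 on the NCI-H209 arrays, and ATP2B1 had 574 and 404 there against 1682 and 1897 in Lu139, so ATP2B4 was lower and ATP2B1 higher in Lu139.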

How the data were processed

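RNA was extracted with a column kit, labelled with biotin and hybridised to 1-colour Affymetrix arrays, per the labels' protocols. The authors deposited probe set intensity values on a linear scale, 1 column per array. The submitters' processing notes name Affymetrix Expression Console, and the sources used here do not say how it summarised or normalized the arrays. Exactly equal values occur within lines and in 0 cases between lines, and what produced them is not stated. Levels set between lines depend on a scaling that is also not stated.

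Of 54675 probe sets, 62 were controls, 41091 had 1 symbol, 1801 several and 11721 none. RefSeq's GRCh38.p14 table, joined on gene identifiers, gave current symbols for 41037. A pathway gene was read from its brightest probe set. Alternatives were a halved or doubled pseudocount, no limit or the 60th percentile in place of the 40th, quantile normalization over all arrays or within lines, the mean of a gene's probe sets, and no term for line. Differences within a line have no test. Limma (version 3.58.1, R version 4.3.3, variance trend, Benjamini-Hochberg) had 1 residual and 5.95 prior degrees of freedom, and the prior is itself estimated imprecisely at 1 residual degree of freedom. It was tested on simulated data of the siTTF-1 comparison, where the share of false calls was above the nominal one, so its adjusted p-values may be too small. Figures used matplotlib 3.10.9.

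The members and gene lists were chosen with earlier results of these data known. Every member was named with all its probe sets. Pathway genes were named where both lines had the same sign and 1 passed 1.5-fold, and for level the 5 largest mean differences each way.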

Additional observations from a re-analysis of the deposited data

Results flagged for a closer look

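Only the brightest probe set of each member was searched for opposite signs in the lines, where it was above the limit in both. STIM1, read by 202764_at, had a difference after siTTF-1 of 0.0381 in NCI-H209 and -0.067 in Lu139 on the log2 scale. Each value rests on 1 array per siRNA, both are far under 1.5-fold, and the difference between the lines was not tested. Dimmer probe sets of other members had opposite signs too, such as STIM2 225250_at at -0.28 in NCI-H209 and 0.04 in Lu139.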

How the results depend on the processing

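The counts of member probe sets at least 1.5-fold lower or higher after siTTF-1 kept their value in NCI-H209 (3 and 0) under all 6 alternatives of pseudocount, limit and quantile normalization. In Lu139 the count lower was 4 with a doubled pseudocount and 3 with the limit at the 60th percentile, where ITPR2 was under the limit. Limma called 123 probe sets and 1 pathway gene, RCN1, with quantile normalization over the 4 arrays, and 0 of each under the other alternatives run; the cause was not tested. The 3 member values past 1.5-fold on the brightest probe set, TMEM38B in both lines and ITPR2 in Lu139, stayed past it in 15 of 15 recomputations, at -1.23 to -1.11, -0.82 to -0.76 and -1.38 to -0.59. The lowest size for ITPR2, just past 1.5-fold, came from the mean of its 4 probe sets. Of 90 recomputed member differences, 4 changed sign, all from values under 1.5-fold. The between-line scaling was chosen as an alternative after seeing the data, and it changed the sign of 7 of 24 level differences, none of them 2-fold. The limma fit already pairs the arrays by line; without that term it also called 0. Signal under the limit restricts what can be said of RYR2 in both lines and of ITPR1 in NCI-H209.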
